A study of Mus musculus with 96 samples.

Results

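The histone genes were followed in primary mouse embryonic fibroblasts (MEFs) that re-entered the cell cycle after serum starvation. Members were the rows of the deposited expression table whose symbol begins with Hist1h to Hist4h, H2af, H1f or H3f, which gave 30 of 15895 genes. Of these, 19 carry the Hist prefix and are the replication-dependent genes, and 11 carry the prefix H2af, H1f or H3f and are the variant genes. Per the study's methods the MEFs came from CF-1 embryos of day 13, and no genotype or transgene is named. All were starved for 36 h in 0.5% fetal calf serum (FCS), and FCS was raised to 20% at 0 h. The groups are therefore the hours of sampling, and the controls are the starved cells at -1 h and 0 h. Polyadenylated RNA was sequenced in a time course named Cycle 1, from -1 h to 38 h in 63 libraries, and in another named Cycle 2, from -1 h to 27 h in 32 libraries. Each hour was sampled once in a time course, so the replicates are both courses at the 31 shared times. Successive hours of a course share a source, and p-values measure only the spread between these samples.

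Replication-dependent histone genes lie in clusters, lack introns and supply the core and linker histones that package newly made DNA. Their messages usually end in a conserved stem-loop rather than a poly(A) tail, are bound there by the stem-loop binding protein Slbp, and are abundant in S phase. Variant histone genes mostly have introns and polyadenylated messages, and their proteins are placed in chromatin outside replication as well. A few genes of the Hist clusters are known to give polyadenylated messages too, and only such messages pass a poly(A) selection.

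The stem-loop was looked for in the genome, because messages that end in it usually carry no poly(A) tail. A match in the genome does not show which end a message has in these cells, and this was not tested. A match was 16 bases that begin with GG, form 6 base pairs and enclose a loop of 4 bases beginning with TT, within the 300 genomic bases after the last annotated stop codon. It was found in 16 of the 18 Hist members with an annotated stop codon, and in 1 of 9 variant members, H2afx. Hist2h2bb and Hist2h2be held no match, and Hist2h3c2 is annotated as a pseudogene without a stop codon. Hist1h1c, Hist1h2bc and Hist3h2a, the Hist members with the highest mean signal, each held a match. Among all 21929 protein-coding genes with such a window 0.347% held a match, and among 21850 non-histone genes 17 did. The matches of 7 of the Hist members described below are shown with the stem-loop in capitals and 5 flanking bases on each side, 5′ to 3′ on the coding strand of NCBIM37 (mm9), at chr13:23831376-23831401 for Hist1h1c, chr13:23647651-23647676 for Hist1h1d, chr13:23662532-23662557 for Hist1h2ae, chr13:23677395-23677420 for Hist1h2be, chr13:22132830-22132855 for Hist1h4i, chr3:96051245-96051270 for Hist2h3c1 and chr11:58768669-58768694 for Hist3h2a.
Hist1h1c: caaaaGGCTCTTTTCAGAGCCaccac
Hist1h1d: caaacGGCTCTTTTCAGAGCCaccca
Hist1h2ae: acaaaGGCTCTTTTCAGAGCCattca
Hist1h2be: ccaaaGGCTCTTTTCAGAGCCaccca
Hist1h4i: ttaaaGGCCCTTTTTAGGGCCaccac
Hist2h3c1: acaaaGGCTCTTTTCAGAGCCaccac
Hist3h2a: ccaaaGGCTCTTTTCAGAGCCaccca

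The stem began between 25 bases after the stop codon in Hist1h1c and 42 bases after it in Hist3h2a. All 7 share the GG to CC stem, and Hist1h4i differs from the others in the stem and the loop. Of the Hist members with a window, only Hist1h2ae and Hist1h2be held the polyadenylation signal AATAAA in it, 172 and 229 bases after the stop codon. None was found for Hist1h1c, Hist1h2bc, Hist1h4i, Hist2h2be, Hist2h3c1 and Hist3h2a, the most abundant Hist members. Among all protein-coding genes AATAAA was in 28.6% of the windows.

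Promoters of a variant gene that rose after serum, H2afz, and of one that was highest right after serum, H3f3b, are shown next. They are the 250 bases before the RefSeq start site in GRCm38.p6, at chr3:137864237-137864486 on the plus strand and chr11:116024505-116024754 on the minus strand. The capitals mark 5 motifs searched on both strands. The CCAAT motif is the box bound by NF-Y, and TATAAA is a form of the TATA box. The letters TTTGAA belong to the cell cycle homology region of late cell cycle genes. The core of sites bound by CREB and ATF factors is TGACG, and the GC box bound by Sp1 holds GGCGGG. Matches of different motifs may overlap.
H2afz: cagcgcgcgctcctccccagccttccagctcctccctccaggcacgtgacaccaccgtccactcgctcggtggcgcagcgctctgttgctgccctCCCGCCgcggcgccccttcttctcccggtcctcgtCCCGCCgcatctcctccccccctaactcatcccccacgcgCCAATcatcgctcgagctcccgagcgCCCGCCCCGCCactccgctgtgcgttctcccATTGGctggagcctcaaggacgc
H3f3b: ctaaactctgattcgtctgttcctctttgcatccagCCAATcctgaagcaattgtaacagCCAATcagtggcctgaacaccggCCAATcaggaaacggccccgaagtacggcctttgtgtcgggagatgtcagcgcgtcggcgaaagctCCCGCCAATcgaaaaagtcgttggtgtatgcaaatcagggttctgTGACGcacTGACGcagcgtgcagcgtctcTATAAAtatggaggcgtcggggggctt

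H2afz holds 2 CCAAT and 4 GGCGGG matches and none of the other motifs, and H3f3b holds 4 CCAAT, 2 TGACG, 1 TATAAA and 1 GGCGGG. Of 27025 mouse genes with a RefSeq promoter, 34.5% hold CCAAT, 13.0% TATAAA, 16.3% TTTGAA, 17.9% TGACG and 32.6% GGCGGG in this window. Of 17 Hist members with a promoter, 13 hold CCAAT, 10 TATAAA, 7 TTTGAA, 6 TGACG and 5 GGCGGG. Of 9 variant members with a promoter, 5 hold CCAAT, 1 TATAAA, 1 TTTGAA, 1 TGACG and 8 GGCGGG. A match is only a match of letters.

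The values are the authors' normalized signal, in which every library is scaled to the same total, and a value is a level unless it is called a log2 change. Summed over genes, the libraries held between 4352440 and 12551600 reads (median 9374770), and 1 read was worth between 0.690 and 1.97. Starved cells of Cycle 2 already had a mean summed signal of 12570 over 12 S phase genes and of 13025 over 10 mitosis genes, against 5659 and 3992 in Cycle 1. Median log2 distances from neighbouring libraries were 0.411, 0.235 and 0.227 for the 24.5 h, 5.5 h and 26 h libraries of Cycle 1, against a median of 0.0893 over all libraries. The 24 h and 25 h libraries had 0.262 and 0.234, which fell to 0.141 and 0.136 once the 24.5 h library was left out, so they were kept. The 8 fibroblast markers, Col1a1 among them, were all in the table, and their sum ran from 384474 to 531590 in starved libraries and from 189346 to 229897 at 19 to 23 h. The sum of 6 macrophage markers was 1118 to 3398 in starved libraries and 665 to 3225 at 19 to 23 h, with means in starved cells of 1157 in Cycle 1 and 3398 in Cycle 2. Endothelial, epithelial, muscle and neural markers had lower sums than the fibroblast markers, and 0 of 3 erythroid markers were in the table. Of 16 RNAs without a poly(A) tail, 5 were in the table, with sums of 16.4 to 48.6 in starved libraries and up to 480 in a library of 4 to 10 h. The part of all of these in the histone values was not tested.

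The Hist genes were mostly near the floor of detection. The annotation of NCBIM37 holds 70 genes with the Hist prefix, of which 19 are members, and 19 variant genes, of which 11 are members. Of the 19 Hist members, 13 had a mean signal under 10 over the 95 libraries, from 0.898 for Hist1h2ae to 8.85 for Hist1h1d, and the highest value any of them reached was 28.6. Among all genes 3091, or 19.4%, had a mean under 10. The median of the member means was 3.19 for the Hist genes, 232 for the variant genes and 155 for all genes. Only Hist1h1c at 488, Hist1h2bc at 86.6, Hist3h2a at 80.7, Hist2h3c1 at 15.4, Hist2h2be at 13.9 and Hist1h4i at 11.2 passed 10, while all 11 variant genes did.

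Per kb of annotated exon, the mean signal spanned 1.15 for Hist2h2bb to 2977 for H1f0, a linker histone of resting cells. The value of H1f0 rests on an annotated pseudogene of 534 exonic bases, which may be shorter than the transcript counted. Below it stood H3f3b, a gene for the replacement histone H3.3, at 1124 per kb, and H2afx, whose product is phosphorylated at DNA breaks, at 593 per kb. Hist1h1c, a linker histone gene, followed at 313 per kb and was the highest Hist gene. Hist1h2bc had 118 and Hist3h2a 40.6 per kb, close to H2afj at 116 and H2afz at 50.3 per kb. The order within these close values says little, because the counted transcripts may differ in length from the annotation.

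**Figure D1:**
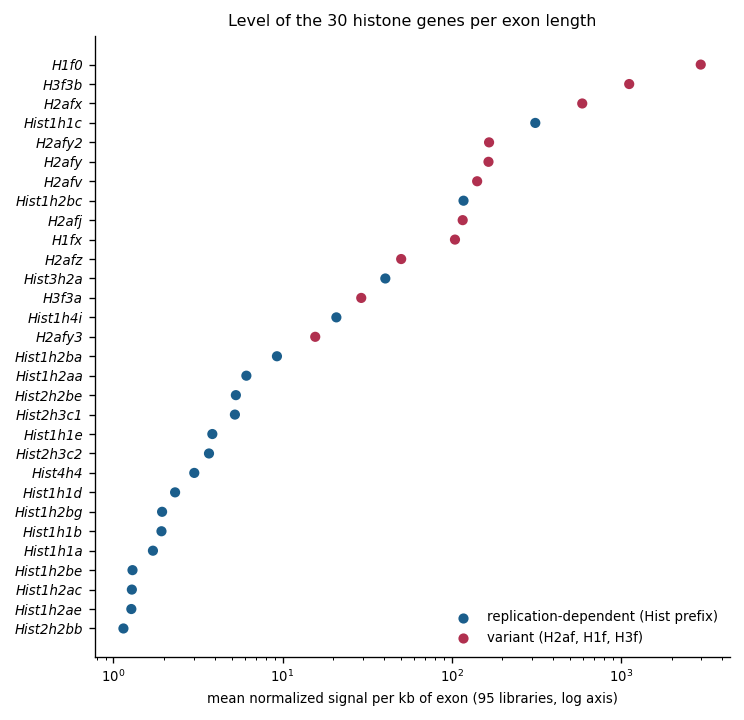
Mean normalized signal per kb of annotated exon over 95 libraries on a log axis, for each of the 30 histone genes in order, with replication-dependent genes in blue and variant genes in red. The 10 highest genes include 2 Hist genes, Hist1h1c at 313 and Hist1h2bc at 118, and the 15 lowest are all Hist genes.

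Near-identical copies limit several members. The share of exonic 50-base stretches, the read length, that occur once in the NCBIM37 genome was 42.7% for Hist2h3c1, 49.2% for Hist1h2bc, 59.8% for Hist1h4i, 56.8% for Hist1h2ae, 59.4% for H2afz and 74.6% for H3f3a. It was 91.5% for Hist1h1c, 97.8% for Hist3h2a, 99.2% for Hist2h2be and 100% for H1f0, H2afv and H2afy. Reads of the low-share genes may stem from copies elsewhere or be lost, so their levels are uncertain. Exons of Hist2h3c1 overlap Hist2h2aa1 and those of Hist3h2a overlap Trim17 on the same strand. Exons of H1fx, H2afy2 and H3f3a overlap genes on the opposite strand, and reads were counted on both strands, so such pairs cannot be told apart.

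After serum the share of Hist genes called lower was near that of all genes, and the values of single members are given as such. The contrast of 1 to 3 h with starved cells, chosen after the values were seen, called 6 of 19 Hist genes lower and 0 higher (limma on log2(value + 1), Benjamini-Hochberg adjusted p under 0.05 over all genes). Among all genes 34.6% were called lower and 11.9% higher, so the count of lower Hist genes is near the background. The median log2 change was -0.66 over the Hist genes, -0.13 over the variant genes and -0.26 over all genes. A trimmed-mean scaling (TMM) raised the median of all genes by 0.21 in this comparison and by 0.14 at 4 to 10 h, so each change is to be read against the median of all genes.

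Hist2h2be, an H2B gene, had a signal of 24.0 and 25.5 in the starved libraries of Cycle 1 and of 24.8 and 17.3 in those of Cycle 2. At 1 to 3 h its 10 libraries ran from 3.12 through a median of 6.10 to 15.0, all below the starved libraries. The log2 change was -1.54 ± 0.25 (SE, adjusted p = 4.8e-06). Hist3h2a, an H2A gene, stood at 176 and 127 in starved Cycle 1 and at 88.7 and 102 in starved Cycle 2. It ran from 31.0 through 50.8 to 107 at 1 to 3 h, overlapping the starved range at its upper end, with a log2 change of -1.08 ± 0.21 (adjusted p = 9e-05). Both genes reached the midpoint of their loss early, Hist2h2be at 1 h in Cycle 1 and 1.5 h in Cycle 2, and Hist3h2a at 1.5 h and 2 h. Hours of this kind were read from a running mean of 3 libraries, with the midpoint set between the starved mean of the course and the lowest or highest running mean up to 27 h. For a loss or a rise the hour is the last crossing before that lowest or highest running mean, so earlier crossings are not shown.

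Hist1h1d and Hist1h1e, linker histone genes with few reads, were also called. Hist1h1d had starved values of 28.6, 20.1, 17.2 and 18.1, and 5.88 to 16.2 with a median of 7.61 at 1 to 3 h (log2 change -1.16 ± 0.39, adjusted p = 0.014). These groups did not overlap. Hist1h1e moved from 4.51 to 5.77 in starved libraries to 0 to 5.00 at 1 to 3 h, a change of a few reads that overlapped (log2 change -1.39 ± 0.50, adjusted p = 0.022). Without the -1 h library of Cycle 1 neither was called (adjusted p = 0.0871 for Hist1h1d and 0.0586 for Hist1h1e), and the same held without the 0 h library of Cycle 1 (0.0515 and 0.0592). Hist1h2ae and Hist2h3c1 were the remaining calls. Log2 changes were larger in size in Cycle 1 than in Cycle 2 for all 4 named genes, such as -1.99 against -1.08 for Hist2h2be. This difference was not tested.

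The most abundant of the class, Hist1h1c, had a signal of 1108 and 1187 in starved Cycle 1 and of 677 and 900 in starved Cycle 2. Its midpoint of loss came at 2 h in Cycle 1 and 2.5 h in Cycle 2, and its lowest running means were 193 at 4.5 h and 415 at 4 h. At 1 to 3 h its log2 change of -0.66 ± 0.33 was not called (adjusted p = 0.0984), and with the time course as a block it was (adjusted p = 0.0254). Both courses fell, but the level reached differed by the course. In Cycle 2 the running mean was back above the midpoint by 7 h, whereas in Cycle 1 this took until 34 h.

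**Figure D2:**
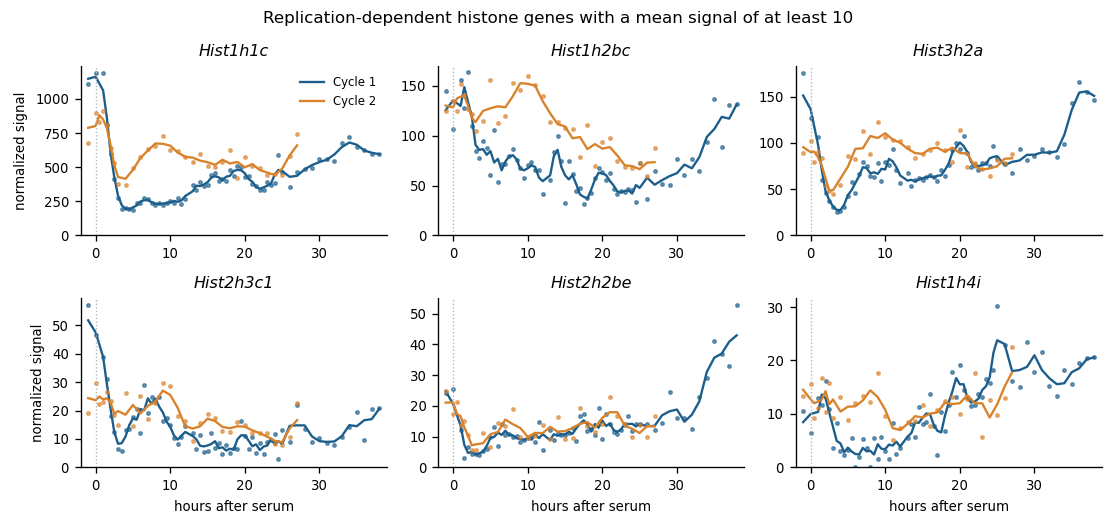
Normalized signal against hours after serum for the 6 replication-dependent genes with a mean of at least 10, where points are single libraries and lines a running mean of 3 libraries, Cycle 1 in blue and Cycle 2 in orange. The signal of Hist1h1c, Hist3h2a and Hist2h2be drops within 3 h of serum (dotted line), and that of Hist2h2be climbs to 52.7 in the last library of Cycle 1.

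At 4 to 10 h against starved cells, 7 of 19 Hist genes were lower and 0 higher, against 37% lower and 20.7% higher among all genes, again near the background for the lower calls. The median log2 change was -0.74 over Hist genes, -0.51 over variant genes and -0.21 over all genes. Hist1h1c ran from 188 through 318 to 728 in the 14 libraries and overlapped the lowest starved library, with a log2 change of -1.39 ± 0.31 (adjusted p = 0.0003). By course the change was -2.34 in Cycle 1 and -0.45 in Cycle 2. Hist2h2be lay between 5.18 and 18.8 with a median of 9.80 (log2 change -1.13 ± 0.24, adjusted p = 0.00016), and Hist1h1d between 2.96 and 23.7 with a median of 8.04 (-1.11 ± 0.37, adjusted p = 0.0115). Both overlapped their starved libraries. Hist1h2ae, an H2A gene with starved values of 3.01, 1.82, 3.82 and 1.65, had a median of 0 and a highest value of 2.46 at these hours. Its log2 change of -1.35 ± 0.33 (adjusted p = 0.00078) rests on few reads a library and on the pseudocount. Hist2h3c1 and Hist3h2a were called with changes of -0.06 and -0.07 in Cycle 2, against -1.60 and -1.40 in Cycle 1. Hist1h2bg was called at an adjusted p of 0.0498 although it moved in opposite directions in the courses.

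Hist1h2bc, an H2B gene, had starved values of 144, 107, 125 and 135 and stayed between 53.2 and 159 at 4 to 10 h, and was not called (log2 change -0.37 ± 0.33, adjusted p = 0.343). In Cycle 1 the shared hours of 4 to 10 h, at 53.2 to 94.6, already lay below both starved libraries of that course. The last crossing of its midpoint of loss came at 14.5 h in Cycle 1 and at 18 h in Cycle 2. That of Cycle 1 followed a value of 99.9 at 14 h, and earlier running means had already been under the midpoint. Its lowest running means were 37.1 at 18 h and 66.4 at 25 h. The median hour of this midpoint over the 6 Hist genes with a mean of at least 10 was 2 h in Cycle 1 and 6.75 h in Cycle 2.

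No Hist gene was called higher when S phase genes rose. In the comparison of 11 to 14 h with 4 to 10 h, 11 of the 12 S phase genes and 0 of the 19 Hist genes were called higher, with 19.6% of all genes higher and 10.3% lower. By unadjusted p under 0.05, 7 of the 30 histone genes passed. By edgeR 4 were called, which were the variant genes H2afy, H2afy2, H2afy3 and H3f3a and no Hist gene. For neither count was the share of all genes computed, so neither has a background. Unlike the other variant genes named, H3f3a had a lower signal at 11 to 14 h in both courses, with its lowest running means at 12 h. The S phase genes reached the midpoint of their rise at a median of 11 h in Cycle 1, in 12 of 12 genes, and at 13 h in Cycle 2, in 5 of 12. Over the same contrast the median log2 change of the Hist genes was -0.01 and that of all genes 0.06. Hist2h3c1 was called lower only with the time course as a block (log2 change -0.56 ± 0.24, adjusted p = 0.0757 without and 0.0442 with the block). Hist1h1c was at 267 to 616 with a median of 463, and Hist3h2a at 56.6 to 103 with a median of 88.4, and both overlapped their range at 4 to 10 h.

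Later windows gave no calls among the 30 histone genes. For 15 to 18 h against 11 to 14 h, 0.107% of all genes were higher and 0.308% lower, and 0 histone genes passed an unadjusted p of 0.05. For 19 to 23 h against 15 to 18 h the shares were 0.0566% and 0.195%, and 3 histone genes passed unadjusted. For 24 to 27 h against 19 to 23 h they were 0% and 0.0252%, and 4 passed unadjusted. Under edgeR 0 were called in each of these comparisons. Few genes of any kind were called between these neighbouring windows. The shares given are at an adjusted p under 0.05, and none was computed for an unadjusted p. The unadjusted counts therefore have no background.

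At 19 to 23 h against starved cells 8 of the 19 Hist genes were called lower, 0 higher, and 11 did not pass. Among all genes 34.4% were lower and 24% higher, and 4 of the 10 mitosis genes were higher. The Hist genes had a median log2 change of -0.66 against -0.14 over all genes. Hist2h3c1, an H3 gene, went from 57.1, 46.5, 19.1 and 29.7 in starved cells to 6.59 to 16.0 with a median of 11.5, without overlap (log2 change -1.59 ± 0.32, adjusted p = 9.4e-05). Hist1h1d lay at 3.01 to 8.52 with a median of 7.88, also without overlap (-1.53 ± 0.39, adjusted p = 0.00121). Hist1h2ae lay at 0 to 0.942 (-1.43 ± 0.34, adjusted p = 0.00066). Hist1h2be, an H2B gene, went from 1.50, 10.9, 8.59 and 2.47 to 0 to 3.72, with overlap (-1.11 ± 0.42, adjusted p = 0.0219).

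The 3 most abundant genes were lower as well. Hist1h1c was at 330 to 573 with a median of 434, below every starved library (log2 change -1.10 ± 0.33, adjusted p = 0.00453). Hist1h2bc was at 42.0 to 97.2 with a median of 66.0, also below all 4 (-0.96 ± 0.34, adjusted p = 0.0174), a call lost without the -1 h library of Cycle 1 (adjusted p = 0.066) or the 0 h library of Cycle 2 (0.0655). Hist3h2a was at 71.6 to 114 and overlapped (-0.50 ± 0.21, adjusted p = 0.0435), and was not called under TMM. In bulk RNA, fewer cells in a state and less RNA per cell cannot be told apart.

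Hist1h4i, an H4 gene singled out after its values were seen, was the only Hist gene with a mean of at least 10 whose running mean reached 1.5 times its starved level by 27 h. In starved cells it had 10.5 and 6.38 in Cycle 1 and 13.4 and 15.7 in Cycle 2. In Cycle 1 it dipped to a running mean of 2.39 at 8.5 h, passed the midpoint of its rise at 24 h, and peaked at 23.8 at 25 h. Without the 3 libraries that stand apart the rise came at 23.5 h and the peak was 20.9. In Cycle 2 its highest running mean was 17.8 at 27 h, less than 1.5 times the starved mean of 14.5. Its log2 change at 19 to 23 h was 0.21 ± 0.56 (adjusted p = 0.766), so no change was shown across both courses.

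The last hours, sampled in Cycle 1 only and therefore without replicate, differed between the Hist genes. Between 28 and 38 h the highest running mean was 681 at 34 h for Hist1h1c and 20.6 at 38 h for Hist2h3c1, below their starved means in that course of 1147 and 51.8. It was 131 at 38 h for Hist1h2bc, 156 at 37 h for Hist3h2a and 42.9 at 38 h for Hist2h2be, against starved means of 125, 151 and 24.8. For Hist1h4i it was 21.0 at 30 h, against a starved mean of 8.45. Of these Hist genes, only Hist2h2be and Hist1h4i had a value above all 4 starved libraries. Summed over the 19 Hist genes, the signal had a median of 1578 in starved Cycle 1, 420 at 4 to 10 h, 597 at 19 to 23 h and 923 at 28 to 38 h. In Cycle 2 the medians were 1132, 956 and 712 over the first 3 of these windows. Hist1h1c alone made up a median of 54.2% to 72.7% of the sum in these windows of both courses. The 13 genes with a mean under 10 together summed to a median of 68.6 in starved Cycle 1 and to 25.9 at 4 to 10 h.

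**Figure D3:**
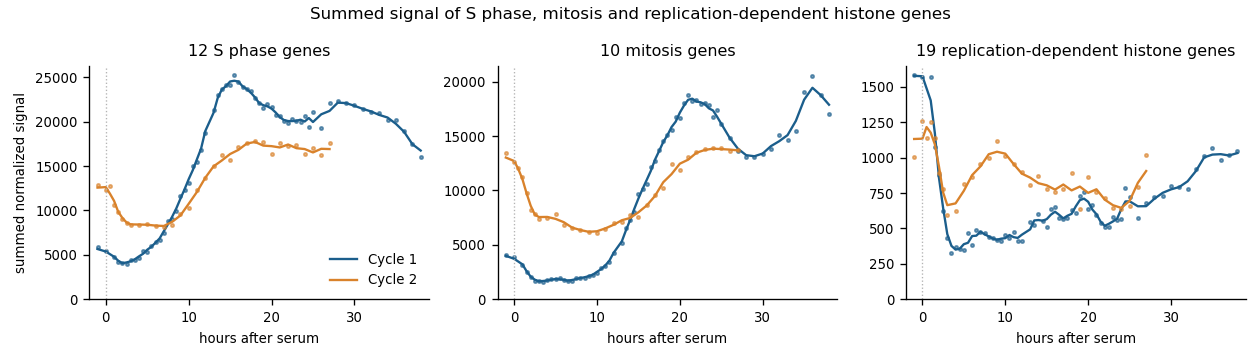
Summed normalized signal against hours after serum for 12 S phase genes, 10 mitosis genes and the 19 replication-dependent histone genes, with points for libraries and lines for a running mean of 3, Cycle 1 in blue and Cycle 2 in orange. The S phase and mitosis sums of Cycle 1 climb from 5659 and 3992 in starved cells, while the histone sum falls from a median of 1578 to 420 at 4 to 10 h and stays below its starved level.

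Of the Hist members 6, namely Hist1h1c, Hist1h2bc, Hist1h2be, Hist2h2be, Hist3h2a and Hist4h4, belong to a list of 10 genes known to give polyadenylated messages outside S phase. This list holds the 3 most abundant Hist members. The sum of these 6 genes ranged from 924 to 1459 in starved libraries, from 302 to 1013 at 4 to 10 h and from 462 to 798 at 19 to 23 h.

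The variant genes followed several courses. At 1 to 3 h, 3 of 11 were called lower and 0 higher, against 34.6% and 11.9% of all genes. At 4 to 10 h against starved cells 7 were lower and 1 higher, against 37% and 20.7% of all genes. At 11 to 14 h against 4 to 10 h 5 were higher and 0 lower, against 19.6% and 10.3%. At 19 to 23 h against starved cells 4 were higher and 3 lower, against 24% and 34.4%. The lower calls at 1 to 3 h and at 19 to 23 h were not above these shares.

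**Figure D4:**
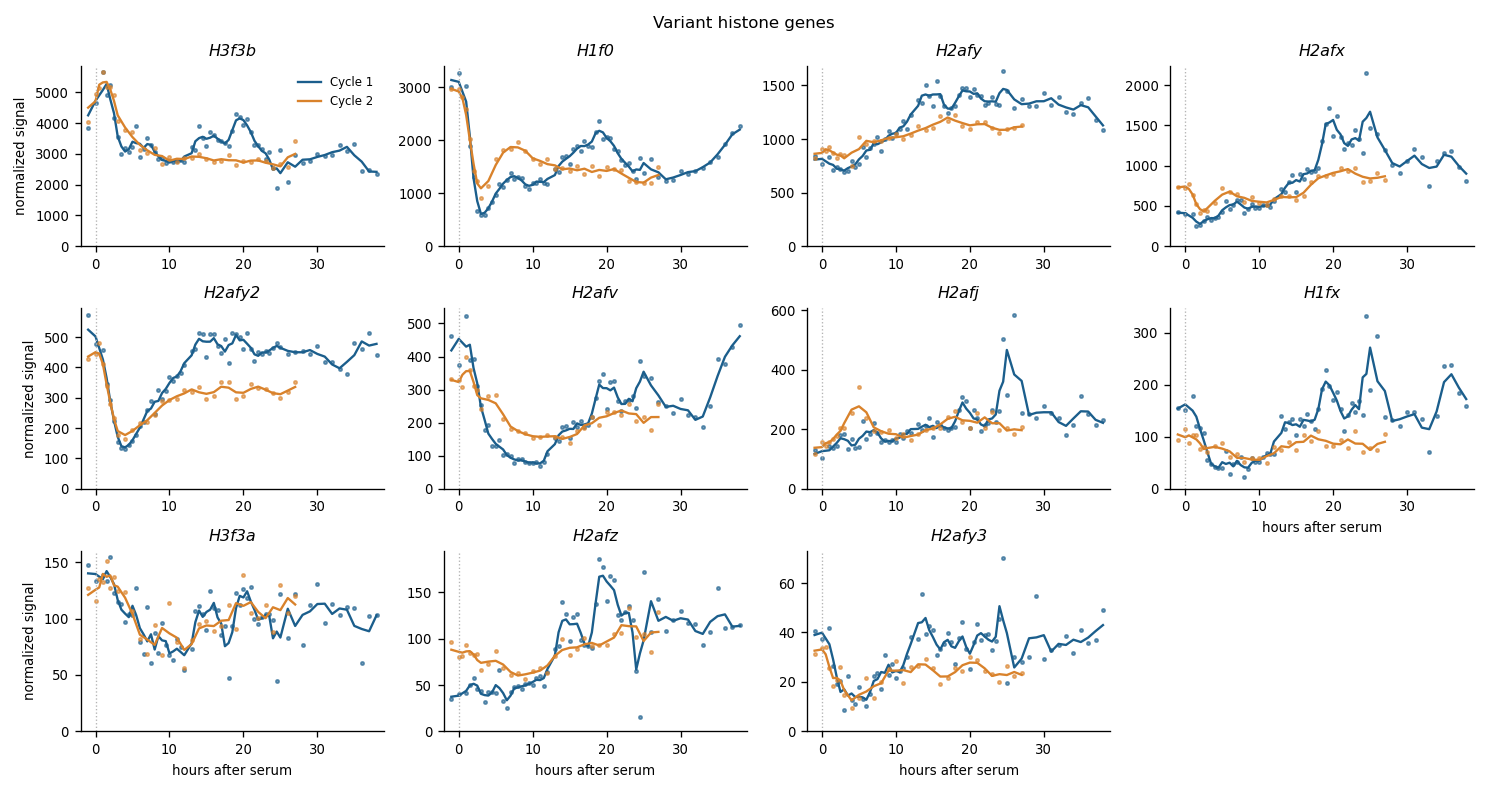
Normalized signal against hours after serum for the 11 variant histone genes, with points for libraries and lines for a running mean of 3 libraries, Cycle 1 in blue and Cycle 2 in orange. H2afx and H2afz climb in Cycle 1 after 11 h, with a dip of H2afz to 90.3 at 18 h. H2afy2 and H2afy3 dip and return, and single high points of H2afj and H1fx at 24.5 to 26 h belong to libraries that stand apart.

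H2afx and H2afz were higher at 19 to 23 h than in starved cells, with the larger change in Cycle 1. That difference between courses was not tested. H2afx had 428 and 406 in starved Cycle 1 and 734 and 726 in starved Cycle 2. It dipped to a running mean of 277 at 2 h in Cycle 1 and of 434 at 2.5 h in Cycle 2. At 19 to 23 h its libraries ran from 870 through 1131 to 1518, all above the starved libraries (log2 change 1.04 ± 0.22, adjusted p = 0.00017). The change was 1.74 in Cycle 1 and 0.34 in Cycle 2. In Cycle 1 it passed the midpoint of its rise at 18 h and peaked at 1670 at 25 h, or at 1568 at 20 h without the libraries that stand apart. In Cycle 2 the highest running mean of 958 at 22 h was 1.31 times the starved mean.

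H2afz, the gene for H2A.Z, a variant found at promoters, had 34.6 and 40.1 in starved Cycle 1 and 96.3 and 79.9 in starved Cycle 2. The starved courses did not overlap, and H2afz was higher where the S phase and mitosis genes were higher. At 11 to 14 h against 4 to 10 h it rose by 0.55 ± 0.20 on the log2 scale (adjusted p = 0.0335), with changes of 0.91 in Cycle 1 and 0.20 in Cycle 2, and was not called by edgeR (adjusted p = 0.0633). At 19 to 23 h it lay at 92.8 to 186 with a median of 127 and overlapped the highest starved library (log2 change against starved 1.11 ± 0.27, adjusted p = 0.00066). In Cycle 1 it had already reached 139 at 14 h and was back at 90.3 at 18 h. The last crossing of its midpoint of rise came at 18 h, before the peak of 168 at 19.5 h. The median midpoint in that course was 18 h for the 10 mitosis genes and 11 h for the 12 S phase genes. Because H2afz crossed its midpoint more than once, its hour does not place it with either list. Of the 10 mitosis genes, 0 reached a 1.5-fold rise in Cycle 2.

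H2afy and H2afj were higher at 19 to 23 h too, with changes of 0.79 and 0.39 in Cycles 1 and 2 for H2afy and of 1.06 and 0.74 for H2afj. H2afy, which encodes the large variant macroH2A1, had 846, 770, 821 and 904 in starved libraries and 1096 to 1474 with a median of 1242 at 19 to 23 h, without overlap (log2 change 0.59 ± 0.11, adjusted p = 3.7e-05). It had risen by 11 to 14 h (0.34 ± 0.08 against 4 to 10 h, adjusted p = 0.00199), and in Cycle 1 its midpoint was at 11.5 h. H2afj, an H2A variant gene, had 129, 105, 118 and 157 in starved libraries. It was higher at 4 to 10 h, at 140 to 341 with a median of 179 (0.59 ± 0.19, adjusted p = 0.00776), and at 19 to 23 h, at 205 to 308 with a median of 231 (0.90 ± 0.20, adjusted p = 0.00024). The earlier window overlapped the starved libraries and the later one did not. At 1 to 3 h its change of 0.42 ± 0.20 was not called by limma (adjusted p = 0.0822) and was by edgeR (adjusted p = 0.00874). Cycle 2 had an early peak of 277 at 5 h with the midpoint at 3 h. Cycle 1 peaked at 467 at 25 h with the midpoint at 24 h, but without the libraries that stand apart at 290 at 19 h with the midpoint at 17.5 h.

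H2afy2 and H2afy3 fell early and returned. H2afy2, which encodes macroH2A2, had 573, 476, 427 and 444 in starved libraries, 155 to 457 with a median of 287 at 1 to 3 h (log2 change -0.79 ± 0.17, adjusted p = 0.00023) and 132 to 367 with a median of 231 at 4 to 10 h (-1.07 ± 0.16, adjusted p = 1e-06). The later window lay below all starved libraries. Its midpoint of loss was 2 h in both courses, and its lowest running means were 137 and 177, both at 4 h. At 11 to 14 h it was up again, by 0.72 ± 0.13 against 4 to 10 h (adjusted p = 5.7e-05), at 296 to 513. At 19 to 23 h it was -0.30 ± 0.17 from starved cells, which was called only with the time course as a block (adjusted p = 0.125 without and 0.0323 with it).

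H2afy3, annotated as a pseudogene of the same family, had 40.6, 37.4, 31.5 and 33.8 in starved libraries, 8.64 to 41.8 at 1 to 3 h and 9.36 to 28.6 at 4 to 10 h. It was lower by 0.76 ± 0.23 and 0.99 ± 0.22 on the log2 scale in these windows (adjusted p = 0.00671 and 0.00026) and higher by 0.73 ± 0.17 at 11 to 14 h (adjusted p = 0.00152). Its midpoint of return was 9 h in both courses, against 10 h and 12 h for H2afy2. Of the exonic 50-base stretches of H2afy3 93.2% occur once in the genome.

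H1f0, the linker histone gene of resting and differentiated cells, was lower in all 3 comparisons with starved cells. It had 3000 and 3268 in starved Cycle 1 and 2967 and 2969 in starved Cycle 2. At 1 to 3 h it ran from 588 through 1356 to 3030 (log2 change -1.15 ± 0.19, adjusted p = 5.2e-06), with its midpoint of loss at 2 h in Cycle 1 and 1.5 h in Cycle 2 and its lowest running means of 610 and 1092, both at 3 h. From 4 to 10 h it lay at 725 to 1967, below every starved library (-1.17 ± 0.18, adjusted p = 1.5e-06), and at 19 to 23 h at 1232 to 2363, again below (-0.92 ± 0.19, adjusted p = 9.7e-05). In Cycle 1 the running mean passed back over the midpoint at 16.5 h and reached 2199 at 38 h, and in Cycle 2 it did not return.

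H2afv fell more slowly than H1f0, and H1fx did so mainly in Cycle 2. H2afv, which encodes another form of H2A.Z, had 461, 376, 331 and 328 in starved libraries and was at 242 to 523 at 1 to 3 h, not called (-0.13 ± 0.24, adjusted p = 0.707). From 4 to 10 h it was at 79.0 to 284 with a median of 161, below all starved libraries (-1.34 ± 0.23, adjusted p = 1.1e-05). The midpoint of loss was 3.5 h in Cycle 1 and 6 h in Cycle 2. It was still lower at 19 to 23 h (-0.56 ± 0.24, adjusted p = 0.0462), a call lost under TMM and edgeR. So the related genes H2afz and H2afv had changes of opposite sign at 19 to 23 h against starved cells, 1.11 and -0.56, and under TMM 1.19 and -0.48.

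H1fx, a linker histone variant gene, had 156, 152, 93.5 and 115 in starved libraries and 23.4 to 88.2 with a median of 55.2 at 4 to 10 h, without overlap (-1.28 ± 0.31, adjusted p = 0.00078). It was higher at 11 to 14 h than at 4 to 10 h (0.67 ± 0.24, adjusted p = 0.0361), a call lost under TMM and edgeR. Its midpoint of loss was 2.5 h in Cycle 1 and 5 h in Cycle 2, and its midpoint of return 13 h in both courses. In Cycle 1 it peaked at 272 at 25 h, and without the libraries that stand apart its highest running mean was 206 at 19 h, under 1.5 times the starved level.

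The genes for H3.3 were lower from 4 to 10 h. H3f3b had 3851, 4664, 4055 and 4958 in starved libraries and 3562 to 5679 with a median of 5050 at 1 to 3 h. Its highest running mean was at 1.5 h in both courses, 5278 in Cycle 1 and 5345 in Cycle 2, but the window was not called (log2 change 0.14 ± 0.11, adjusted p = 0.303). With edgeR it was (adjusted p = 0.00411). At 4 to 10 h it was at 2687 to 3783, below all starved libraries (-0.48 ± 0.10, adjusted p = 0.00023), and at 19 to 23 h at 2639 to 4306, overlapping them (-0.47 ± 0.11, adjusted p = 0.00046). H3f3a had 147, 133, 127 and 115 in starved libraries and 67.4 to 124 at 4 to 10 h (-0.51 ± 0.14, adjusted p = 0.0024), with its lowest running means of 67.5 and 72.2, both at 12 h. At 19 to 23 h its change of -0.22 ± 0.15 was not called (adjusted p = 0.194).

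**Figure D5:**
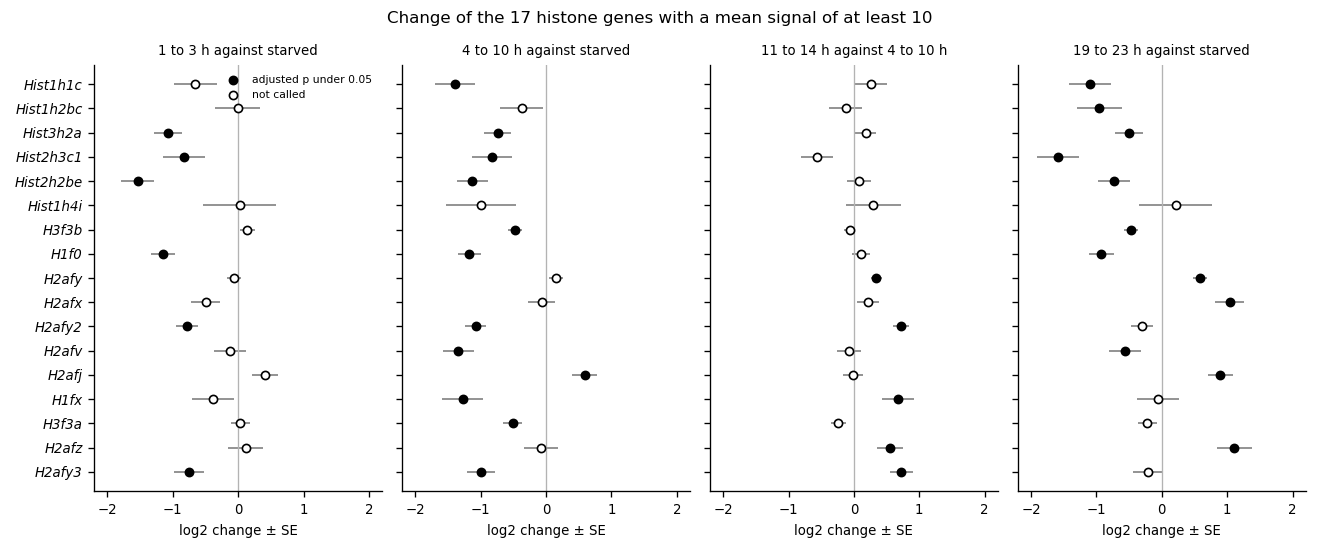
Log2 change on the log2(value + 1) scale with its standard error in 4 comparisons for the 17 histone genes with a mean of at least 10, with filled points for an adjusted p under 0.05. Filled points of the Hist genes lie only on the lower side, and those of the variant genes lie on both sides.

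Genes that act on histones and their messages were followed beside them. Of a list of 28 genes for histone mRNA processing, histone transcription and histone chaperones, 27 were in the table. Against starved cells 1 was called higher and 11 lower at 1 to 3 h, where 11.9% of all genes were higher and 34.6% lower. At 4 to 10 h 3 were higher and 5 lower, against 20.7% and 37% of all genes. At 11 to 14 h against 4 to 10 h 13 were higher and 1 lower (all genes 19.6% and 10.3%), and at 19 to 23 h against starved cells 13 were higher and 3 lower (24% and 34.4%). The median log2 changes in these comparisons were -0.34, -0.16, 0.29 and 0.31. Slbp, whose protein binds the stem-loops shown above, was lower at 1 to 3 h than in starved cells (log2 change -0.49 ± 0.17, adjusted p = 0.0155) and rose by 0.60 ± 0.13 at 11 to 14 h (adjusted p = 0.00041). In Cycle 1 its midpoint of rise was at 11 h and its peak 592 at 15.5 h. In Cycle 2 it reached 424 at 16 h, 1.15 times its starved mean, which is less than the 1.5-fold needed for an hour of rise. The chaperone genes Nasp (0.62 ± 0.15, adjusted p = 0.00225), Asf1b (1.32 ± 0.39, adjusted p = 0.0103) and Chaf1a (1.15 ± 0.25, adjusted p = 0.00071) rose in the same window. Npat, the coactivator of Hist gene transcription, changed by 0.29 ± 0.12 (adjusted p = 0.058). Cenpa, the centromeric H3 variant outside the pattern of names, was at -0.16 ± 0.40 in that window. In Cycle 1 it passed the midpoint of its rise at 19 h, close to H2afx at 18 h.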

How the data were processed

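Per the labels, RNA was prepared with a stranded poly(A) kit and read as single 50-base reads. The deposited values are a normalized signal: the authors processed reads with CASAVA, aligned them to mm9 with STAR, counted reads on exons of both strands with HOMER and scaled each library to a common total. Versions are not given in the sources used here. Of 96 columns 95 were matched to libraries by name and 1 was not used. Dividing a column by what 1 read was worth in it gave whole reads, within 0.1 of a read, for 94.2% to 96.2% of low values. The members, lists and tests were chosen with earlier results of these data known, and the comparison of 1 to 3 h and the runs without the 3 libraries that stand apart were added after the values were seen.

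Values were compared as log2(value + 1) by limma 3.58.1 (R 4.3.3) over all 15895 genes at the 31 shared times, with 1 group per hour, a window as the mean of its hours, starved cells as the mean of -1 h and 0 h, two-sided tests and Benjamini-Hochberg adjustment. edgeR 4.0.16 on the recovered reads was an alternative. The labels' course names pair the hours, and deviations of same-course libraries had a median correlation of 0.424 over 465 pairs of hours, 403 of them above 0.1. Hours of rise and fall used members with a mean of at least 10 and a 1.5-fold change. Genes named were all variant genes, up to 4 Hist genes with the largest rise and 4 with the largest fall per comparison among those called and moved alike in both courses, the 3 most abundant, and 6 partner genes. The fit was tested on simulated data. These had independent libraries and no difference between the courses, so they do not test the p-values under the correlation given above. Gene positions are from NCBIM37, and promoters from RefSeq, GRCm38.p6, where 26 of 30 members matched. H2afx, H2afy3, Hist1h2bc and Hist2h2be had no entry. Python 3.11.15 was used.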

Additional observations from a re-analysis of the deposited data

Results flagged for a closer look

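Among the 4 starved libraries of each of the 17 histone genes with a mean of at least 10, 1 gene had a library far from the others: H1f0 at 3268 in the 0 h library of Cycle 1, against 2967 to 3000 in the others. Chance flags about 1 in 20 such groups. The libraries of 28 to 38 h of Cycle 1 have no replicate and enter no comparison. In them the median signal of 5 of these 17 genes lay above every starved library. It was 239 for H2afj against a highest starved value of 157, 1061 for H2afx against 734 and 1312 for H2afy against 904. For H2afz it was 115 against 96.3, and for Hist1h4i 18.3 against 15.7. The share of all genes that lay above their starved libraries was not computed, so this count has no background.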

How the results depend on the processing

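Of 44 calls of a histone gene in a comparison, 0 reversed under 11 other settings or without any of 62 libraries, and 16 were kept under all of these. With a 2-fold change also needed, the calls fell from 15 to 9 at 4 to 10 h against starved cells, from 5 to 0 at 11 to 14 h against 4 to 10 h and from 15 to 7 at 19 to 23 h against starved cells. With 1 group per window, 1 gene, H2afx, was called at 19 to 23 h against 15 to 18 h. With the time course as a replicate block the counts were 10, 15, 6, 0, 0, 0 and 16 over the comparisons in the order of 1 to 3 h, 4 to 10 h, 11 to 14 h, 15 to 18 h, 19 to 23 h and 24 to 27 h with the window before or starved cells, and 19 to 23 h with starved cells. The block lost 0 calls and gained the 3 named in the text. Without 1 library, which leaves its hour with a lone sample assumed to vary like the other hours, the counts ran from 6 to 10, from 11 to 16, from 3 to 6, 0, from 0 to 1, 0, and from 11 to 17 in the same order. Of the calls against starved cells, 10 were lost without the -1 h library of Cycle 1, with adjusted p of 0.0871 for Hist1h1d, 0.0586 for Hist1h1e and 0.355 for Hist2h3c1 at 1 to 3 h, of 0.0808 for Hist1h1d, 0.614 for Hist1h2bg, 0.297 for Hist2h3c1 and 0.0784 for Hist3h2a at 4 to 10 h, and of 0.203 for H2afv, 0.066 for Hist1h2bc and 0.387 for Hist3h2a at 19 to 23 h. The log2 change of Hist2h3c1 at 1 to 3 h was then -0.44. Without the 0 h library of Cycle 1, 11 were lost, with 0.0515 for Hist1h1d, 0.0592 for Hist1h1e, 0.052 for Hist1h2ae and 0.169 for Hist2h3c1 at 1 to 3 h, 0.0938 for H2afj, 0.184 for Hist1h2bg and 0.132 for Hist2h3c1 at 4 to 10 h, and 0.143 for H2afv, 0.248 for Hist1h2be, 0.0949 for Hist2h2be and 0.168 for Hist3h2a at 19 to 23 h. Without the -1 h library of Cycle 2, 3 were lost, with 0.0587 for Hist1h1e and 0.0566 for Hist1h2ae at 1 to 3 h and 0.25 for Hist1h2be at 19 to 23 h. Without the 0 h library of Cycle 2, 4 were lost, with 0.0592 for Hist1h1e at 1 to 3 h, 0.0608 for Hist1h2bg at 4 to 10 h, and 0.0679 for H2afv and 0.0655 for Hist1h2bc at 19 to 23 h. Median-of-ratios scaling also lost Hist1h1d at 1 to 3 h. Hist1h2bg lost its call without any of 44 libraries, H1fx and H2afz at 11 to 14 h without any of 11. The cause was not tested. In Cycle 1 the hour of rise of the Hist gene that rose stayed between 23.5 and 25 h, while in Cycle 2, with no rise otherwise, 1 Hist gene rose at 27 h with no smoothing. Few reads limit the 13 Hist genes with a mean under 10.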
